A study of Mus musculus with 2 samples.

Results

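The late cornified envelope and filaggrin-like genes are a set of 35 genes for proteins of the outermost epidermis, chosen by symbol: the Lce1, Lce3 and Lce6a genes, 6 S100-fused genes, and other genes of the cornified envelope such as Lor and Ivl. Of these, 32 had an array probe of their own, among 22180 genes measured. They were read in the dorsal skin of female mice of NC/Nga, an inbred line that readily develops dermatitis. The ZAG group had dermatitis induced with an ointment of house dust mite (Dermatophagoides farinae) body extract and also received recombinant ZAG, at 1 µg/mL, on the skin. The control group had the same mite dermatitis without ZAG, and no vehicle is named in the sources used here. Both groups were 6 weeks old at entry, received each agent 2 times a week for 6 weeks and were sampled at 13 weeks, so neither is healthy skin. The design text names 3 mice in each group. The table holds 1 column per group, ZAG and control, and the sources used here do not say whether a column is 1 mouse, a pool or a mean. With 1 array a group there is no replicate error and no test, and every difference below describes these arrays.

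The cornified envelope is the protein shell that replaces the plasma membrane of a dying keratinocyte. Transglutaminases cross-link involucrin, loricrin, late cornified envelope (LCE) proteins and small proline-rich proteins into it, while filaggrin bundles keratin filaments and is later broken down to moisture-binding amino acids. Most of these genes lie side by side in the epidermal differentiation complex. In human skin, loss-of-function variants of FLG predispose to atopic dermatitis, and LCE3 genes are known to be induced in wounded and psoriatic skin, whereas LCE1 genes belong to normal epidermis.

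The members did not move as a block. Of the 32, 16 were lower and 16 higher with ZAG, and over all genes 47.9% were lower and 51.8% higher. Their median log2 difference, ZAG minus control, was 0.02, beside 0.01 over all genes. Within the set the subfamilies differed in value. All 6 Lce3 genes were lower, with a median of -0.70, while 9 of 11 Lce1 genes were higher, with a median of 0.12. Only 2 Lce3 and 7 Lce1 genes were above a background gauge, defined below, on both arrays. Both of these Lce3 genes were lower, and 5 of these 7 Lce1 genes were higher. The 6 S100-fused genes had a median of 0.19 but ranged from -1.04 in Rptn to 1.36 in Tchhl1. The 8 other members, Lce6a apart, had a median of -0.03.

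Differences of at least 2-fold were seen in 3 members. Lce3d and Rptn were lower and Tchhl1 was higher. That is 6.25% of the measured members lower, beside 0.609% of all genes, and 3.12% higher, beside 0.153% of all genes. For these counts a value below 3.16 was raised to it. This background gauge is the 95th percentile of mean level over 1390 genes of olfactory or vomeronasal receptors. Among the 11090 genes whose mean level reached the median of all genes (3.87), 1.15% were lower by 2-fold or more and 0.271% were higher by as much. At 1.5-fold, Lce3c and Cnfn joined the lower members, making 4 (12.5%, beside 2.79% of all genes). Ivl joined the higher ones, making 2 (6.25%, beside 1.46%).

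A scale for probe error, though not for differences between mice, comes from genes with several probes. The SD between probes of one gene was 0.244 over 591 genes at or above the median level. Apart from Lce1m, each measured member had 1 probe, so for these the scale comes from other genes. Only 21 of the 32 members reached that level, and whether the scale holds below it was not tested. Of the 32 members, 17 differed by more than this and 15 by less. Over all genes 35.9% differed by more. The gauge was reached on both arrays by 22 members, on the control array alone by Lce3a and Lce3b, and on neither array by 8. In bulk skin, fewer cells of a type and less RNA per cell cannot be told apart.

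**Figure D1:**
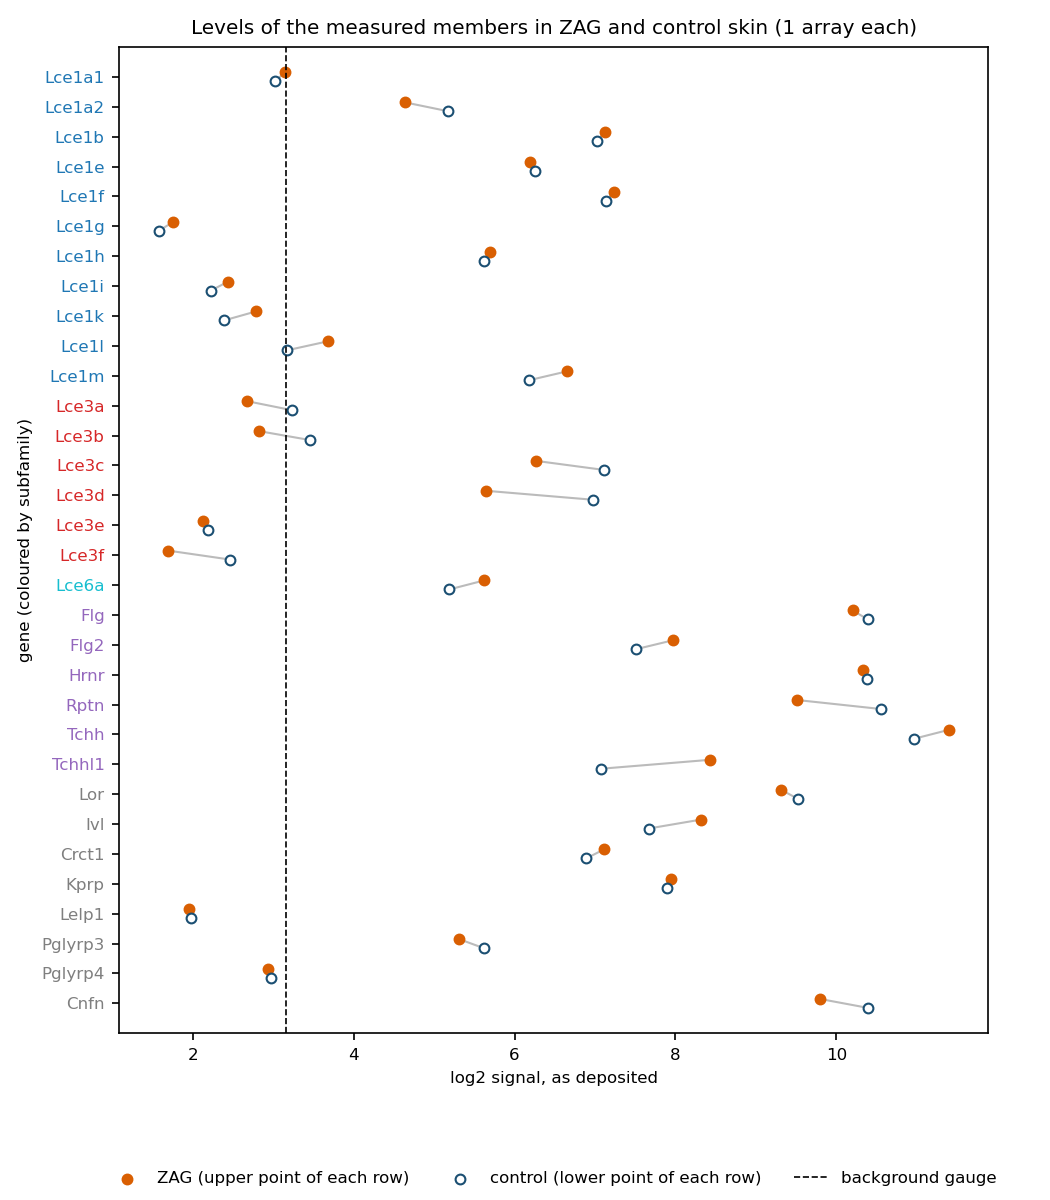
Log2 signal of each of the 32 measured members (rows; names coloured by subfamily, Lce1 blue, Lce3 red, Lce6a cyan, S100-fused purple, others grey) on the ZAG array (filled, upper point) and the control array (open, lower point); the dashed line is the background gauge of 3.16. Every Lce3 gene has its ZAG point left of its control point, and Lce3c, Lce3d, Rptn and Tchhl1 show the widest gaps among members beyond the gauge.

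**Figure D2:**
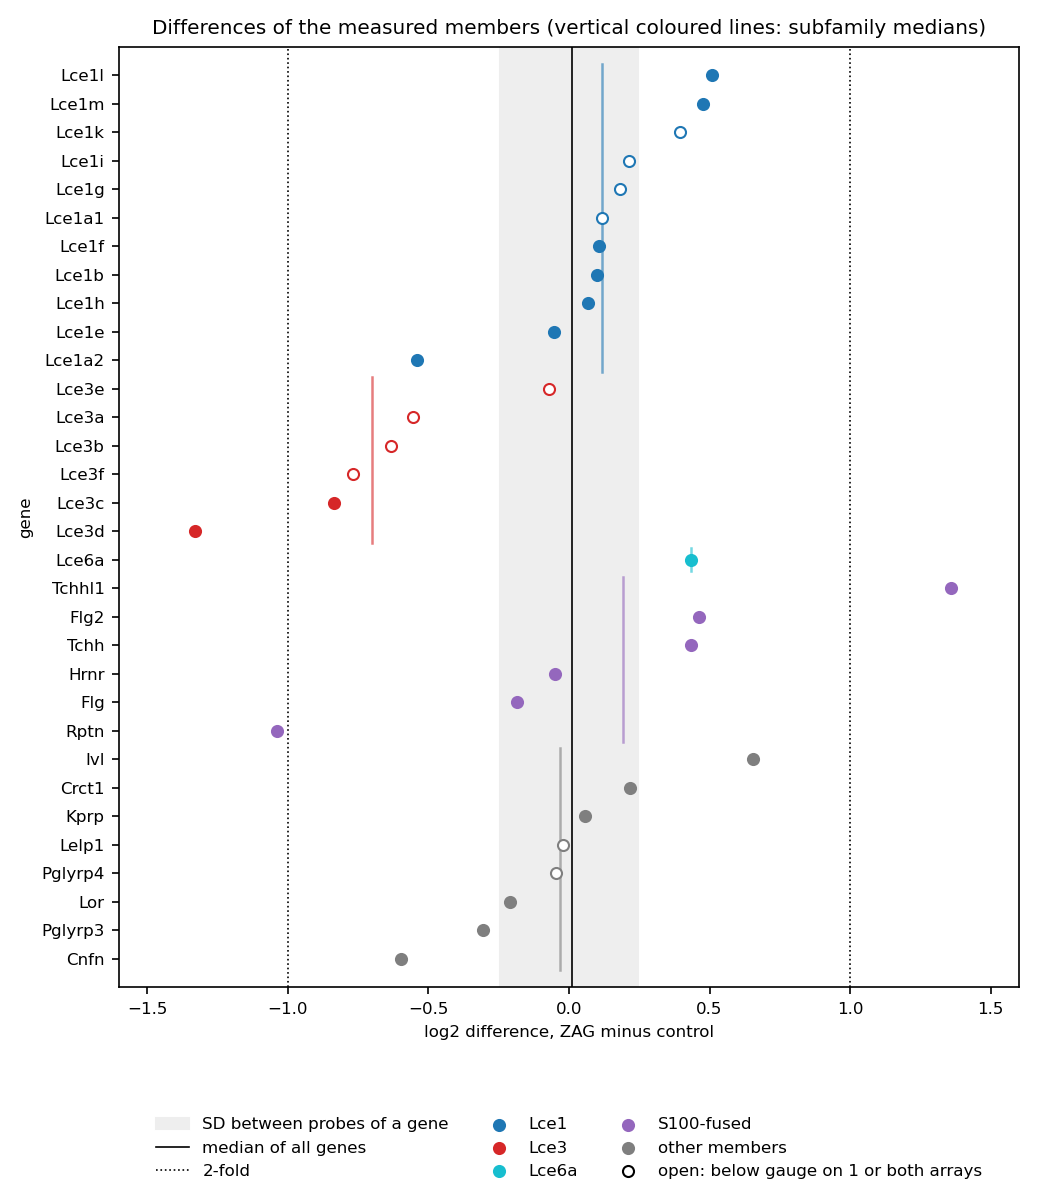
Log2 difference (ZAG minus control) of each measured member, ordered within its subfamily; coloured vertical lines are subfamily medians, the grey band spans the SD of 0.244 between probes of a gene on either side of 0, and open points were below the gauge on 1 or both arrays. The Lce3 median stands at -0.70 and the Lce1 median at 0.12, and 3 members lie beyond the 2-fold lines.

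The Lce3 genes encode late envelope proteins, and in mice they form 1 uninterrupted run. Lce3d had a log2 level of 5.65 in ZAG skin and 6.98 in control skin, a log2 difference of -1.33 (2.51-fold lower). Lce3c was at 6.27 with ZAG and 7.11 in control, a difference of -0.84 (1.78-fold lower). These are the Lce3 genes read above the gauge on both arrays, and both gaps exceed the probe SD.

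The other Lce3 genes were read near background. Lce3b was at 2.82 with ZAG and 3.45 in control, which, floored at the gauge, puts it at least 1.22-fold lower. Lce3a was at 2.67 with ZAG and 3.23 in control, at least 1.05-fold lower. Both were therefore hardly above background in control skin. Lce3f (1.69 with ZAG and 2.46 in control) and Lce3e (2.12 with ZAG and 2.19 in control) did not reach the gauge on either array and get no fold. The subfamily direction thus rests on Lce3c and Lce3d, whose median difference was -1.08. Each was read by 1 probe. How far these probes cross-react was not tested, so they may not be separate readings.

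Stress markers of keratinocytes differed in the same direction as Lce3. The stress keratins Krt6a, Krt6b, Krt16 and Krt17, made in wounded and inflamed epidermis, were lower in 4 of 4, with a median of -1.35 and a summed linear signal of 4402 in ZAG skin and 10499.5 in control skin. Krt6b (-1.97) and Krt16 (-1.67) differed most. Krt17 differed by -0.08, less than the probe SD, and the other 3 by more than it. None was below the gauge. The neutrophil markers S100a8, S100a9, Cxcr2, Csf3r, Ly6g and Ngp were lower in 4 of 6, with a median of -1.14 and summed signals of 474.0 with ZAG and 1225 in control. Ly6g and Ngp, which define neutrophils, did not reach the gauge on either array, and keratinocytes make S100a8 (-1.40) and S100a9 (-1.49) as well. Over all genes 47.9% were lower and 51.8% higher. The part of inflammation or infiltrate in the Lce3 values was not tested.

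The Lce1 genes, which encode late envelope proteins of normal epidermis, differed little. Lce1b was at 7.12 with ZAG and 7.02 in control. Lce1f was at 7.24 with ZAG and 7.13 in control. Both were slightly higher with ZAG, by less than the probe SD. Lce1h was at 5.69 with ZAG and 5.62 in control. Lce1e was at 6.20 with ZAG and 6.25 in control. These gaps, too, are smaller than the probe SD. Of the 7 Lce1 genes above the gauge on both arrays, 3 differed by more than that SD.

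Lce1m was at 6.66 with ZAG and 6.18 in control, a difference of 0.48. Its 2 probes gave 0.35 and 0.61, both higher with ZAG. Lce1l was at 3.68 with ZAG and 3.17 in control (0.51), the control value lying at the gauge. Lce1a2 went the other way, at 4.63 with ZAG and 5.18 in control (-0.54). The remaining 4 measured Lce1 genes did not reach the gauge on either array. Lce1a1 was at 3.14 with ZAG and 3.02 in control, and Lce1k at 2.78 with ZAG and 2.39 in control. Lce1i was at 2.44 with ZAG and 2.22 in control, and Lce1g at 1.76 with ZAG and 1.58 in control. Lce1c and Lce1d had no probe of their own and Lce1j none at all. Lce1 genes are similar copies, and how far their probes cross-react was not tested, so single Lce1 values are uncertain. Lce6a, a further gene of the family, was at 5.62 with ZAG and 5.19 in control, a difference of 0.43.

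The Lce3 median minus the Lce1 median was -0.82. With 1 array a group this gap between subfamilies has no test.

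Start regions of Lce genes are shown because the values of the families diverged. A short run of bases found in most of their promoters is described below. Promoters of 30 of the 35 members (250 bases before to 50 from the start) were in the RefSeq promoter table, build GRCm38.p6. For each family the members above the gauge with the most negative and the most positive difference are printed, as the 60 bases before and 50 bases from the start. They are Lce3d (chr3:92957330-92957439, plus strand), Lce3c (chr3:92944426-92944535, plus strand), Lce1a2 (chr3:92670266-92670375, minus strand) and Lce1l (chr3:92851237-92851346, minus strand). Capitals mark runs of at least 8 bases identical to the other printed member of the family in a pairwise alignment.
Lce3d: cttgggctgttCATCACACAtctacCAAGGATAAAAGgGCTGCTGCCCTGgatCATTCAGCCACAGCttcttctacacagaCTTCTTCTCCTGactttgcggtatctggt
Lce3c: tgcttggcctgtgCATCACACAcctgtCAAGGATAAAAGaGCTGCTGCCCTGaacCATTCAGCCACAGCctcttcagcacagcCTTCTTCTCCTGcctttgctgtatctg
Lce1a2: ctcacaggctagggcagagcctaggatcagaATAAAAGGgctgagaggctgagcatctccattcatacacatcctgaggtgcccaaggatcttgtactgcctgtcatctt
Lce1l: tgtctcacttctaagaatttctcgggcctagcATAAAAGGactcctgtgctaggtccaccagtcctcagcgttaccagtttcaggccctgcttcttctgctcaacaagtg

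The printed Lce3 windows were 83.9% identical and the printed Lce1 windows 45.0%, but these pairs do not stand for their families. Over the whole 300 bases, the 15 Lce3 pairs were 51.5% to 83.1% identical (median 55.3%), highest for Lce3d with Lce3e. The 78 Lce1 pairs were 42.9% to 86.0% identical (median 60.8%), highest for Lce1g with Lce1i. The 78 pairs of an Lce1 with an Lce3 gene were 37.6% to 51.2% identical (median 45.4%). The run ATAAAAG, searched on both strands after it was seen in these windows, stood 28 to 30 bases before the start in 15 of 19 Lce1 and Lce3 promoters. It was found in 10 of 13 Lce1 and 5 of 6 Lce3 promoters, beside 5.42% of all 32851 promoters in the table. It was in none of the 6 S100-fused promoters. Lce1d and Lce1m, where it is preceded by T, also match TATAAA. Of its carriers above the gauge on both arrays, Lce3c, Lce3d, Lce1a2 and Lce1e were lower with ZAG. Lce1h, Lce1l and Lce1m were higher. Lce1e and Lce1h differed by less than the probe SD, and the Lce1l control value lay at the gauge. Lce1c, Lce1d and Lce1j carry the run but had no probe of their own. Whether the run has a part in these values was not tested.

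**Figure D3:**
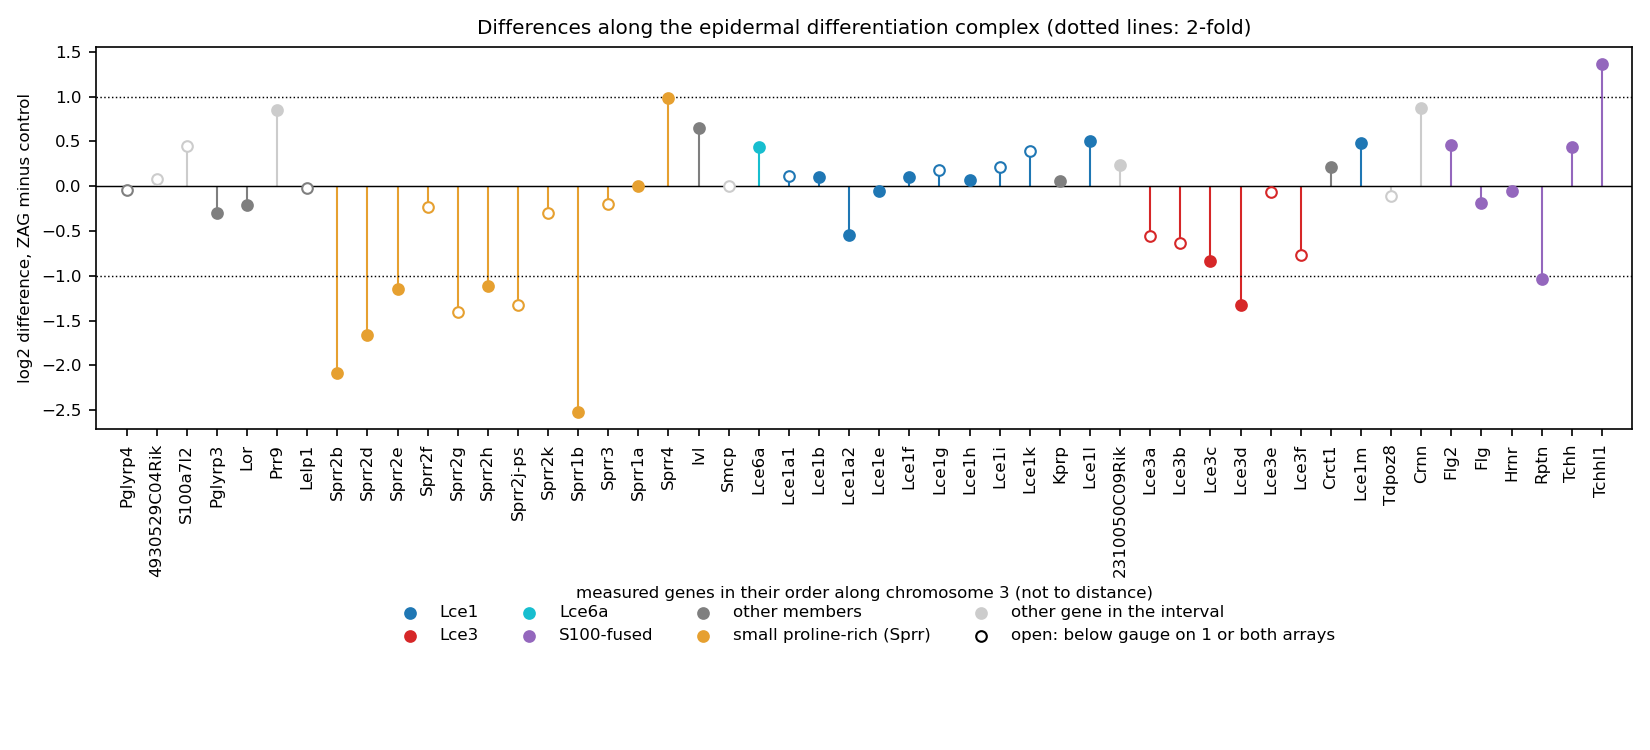
Log2 difference (ZAG minus control, vertical axis) of the 50 measured genes between the outermost members on chromosome 3, in gene order and not to distance; open points were below the gauge on 1 or both arrays. Lower values form runs at the Sprr2 and Lce3 genes, the Lce1 run lies near 0, and Sprr4, Ivl, Crnn and Tchhl1 stand above it.

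Gene order along the epidermal differentiation complex shows where the lower values lie. On chromosome 3, where 34 members lie, 50 of 59 genes between the outermost members were measured, and neighbour order was taken from RefSeq GRCm38.p6. The values of Lce3a to Lce3f were all lower, though only Lce3c and Lce3d were above the gauge on both arrays. The nearest measured neighbours, 2310050C09Rik (0.23) and Crct1 (0.22), differed by less than the probe SD. The small proline-rich genes form the other lower run. Of 12 measured, 10 were lower, with a median of -1.13, where 47.9% of all genes were lower. At least 2-fold lower were 5, led by Sprr1b (-2.52) and Sprr2b (-2.08), where 0.609% of all genes were that much lower. Of the 12, 7 were above the gauge on both arrays, Sprr2g, Sprr2j-ps and Sprr2k were below it with ZAG, and Sprr2f and Sprr3 reached it on neither array. Sprr1a (0.00) and Sprr4 (0.98) at the Ivl end of that run were not lower. Near-identical Sprr2 copies make single Sprr2 values uncertain. The interval also held Prr9 (0.85) and Crnn, the S100-fused gene of cornulin (0.87). Neither is a member, and both were picked out after their values were seen.

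The S100-fused genes encode large proteins with an S100-type calcium-binding start and a repetitive body. Flg encodes profilaggrin, the precursor of filaggrin, and was at 10.20 with ZAG and 10.39 in control (-0.18). Hrnr, the gene of the filaggrin-like protein hornerin, was at 10.33 with ZAG and 10.38 in control (-0.05). Neither gap exceeds the probe SD. Flg2, which encodes a filaggrin paralogue of the granular layer, was at 7.97 with ZAG and 7.51 in control, a difference of 0.46.

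Rptn and Tchhl1 held the extremes of the S100-fused genes, on either side of Tchh on the chromosome. Rptn encodes repetin, an envelope precursor, and was at 9.51 with ZAG and 10.55 in control, 2.05-fold lower. Tchhl1, the trichohyalin-like gene, was at 8.43 with ZAG and 7.07 in control, 2.57-fold higher. Tchh, the gene of trichohyalin of the inner root sheath and hair medulla, was at 11.40 with ZAG and 10.96 in control, a difference of 0.44.

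Hair markers were higher beside Tchh and Tchhl1. The inner root sheath keratin genes Krt25 to Krt28 and Krt71 to Krt74 were higher in 8 of 8, with a median of 0.57 and summed linear signals of 8665 with ZAG and 5818 in control. Krt26 (1.13) and Krt72 (0.98) led. Hair shaft keratins were higher in 8 of 8 measured, with a median of 0.59 and summed signals of 5313 with ZAG and 3466 in control, led by Krt31 (0.81) and Krt83 (0.74). None of these hair keratins was below the gauge on both arrays. Over all genes 51.8% were higher. The Tchh difference lies within the range of the inner root sheath list (0.32 to 1.13) and the Tchhl1 difference above it. The part of hair content in both was not tested.

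The promoters of Rptn and Tchhl1 are shown because these genes differed in opposite directions and both carry the letters TGANTCA, explained below. Rptn lies at chr3:93393449-93393748 and Tchhl1 at chr3:93468504-93468803, both on the plus strand of GRCm38.p6, from RefSeq. Capitals mark TGANTCA and TATAAA, both searched on both strands. TGANTCA is the AP-1 letters TGAGTCA with the central base left free, so a match need not be an AP-1 site.
Rptn: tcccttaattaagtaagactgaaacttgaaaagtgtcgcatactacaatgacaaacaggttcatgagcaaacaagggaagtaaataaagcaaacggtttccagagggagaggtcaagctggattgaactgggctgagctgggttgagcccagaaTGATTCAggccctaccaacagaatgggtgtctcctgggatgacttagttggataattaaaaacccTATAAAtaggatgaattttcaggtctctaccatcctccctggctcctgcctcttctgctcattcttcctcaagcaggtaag
Tchhl1: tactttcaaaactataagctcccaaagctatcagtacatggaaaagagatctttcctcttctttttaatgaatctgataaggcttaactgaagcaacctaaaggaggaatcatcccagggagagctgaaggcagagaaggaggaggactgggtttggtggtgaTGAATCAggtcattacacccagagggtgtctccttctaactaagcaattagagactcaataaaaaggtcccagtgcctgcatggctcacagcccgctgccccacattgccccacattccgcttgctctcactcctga

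TGANTCA was present in 6 of 30 member promoters, those of Flg, Flg2, Rptn, Tchhl1, Lor and Ivl, beside 7.81% of all promoters. Its first base stood 48 (Lor) to 116 (Ivl) bases before the start, at 96 in Rptn and 87 in Tchhl1. The stricter AP-1 letters TGAGTCA, on either strand, were in 2 of the 30, Lor and Ivl, beside 5.20% of all promoters, so Rptn and Tchhl1 hold the looser form only. That looser form was in 4 of 6 S100-fused promoters and in none of the 19 Lce1 and Lce3 promoters. The stricter letters were in 0 of the 6 S100-fused promoters. Genes with TGANTCA differed by -1.04 (Rptn) to 1.36 (Tchhl1). TATAAA was in 9 of 30, beside 13.6% of all promoters, among them Rptn with its first base 31 bases before the start. TTGCNNAA, a loose form of a C/EBP site, was in 4 of 30 (Lce3f, Flg, Flg2 and Hrnr), beside 10.8%. A match describes letters in this window and was not tested for binding.

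The other envelope genes held both directions. Ivl encodes involucrin, an early scaffold of the envelope, and was at 8.32 with ZAG and 7.67 in control, 1.57-fold higher. Lor encodes loricrin, a main mass of the envelope, and was at 9.31 with ZAG and 9.52 in control (-0.21), a gap smaller than the probe SD. Cnfn encodes cornifelin, a further envelope component, and is the member on chromosome 7. It was at 9.79 with ZAG and 10.39 in control, 1.51-fold lower. Involucrin and cornifelin transcripts therefore stood on opposite sides, each by more than the probe SD.

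Kprp, a proline-rich keratinocyte protein gene, was at 7.95 with ZAG and 7.89 in control, and Crct1, a cysteine-rich gene beside the Lce3 run, at 7.11 with ZAG and 6.89 in control. Neither gap exceeds the probe SD. Pglyrp3, the gene of a peptidoglycan recognition protein that kills bacteria, was at 5.31 with ZAG and 5.61 in control (-0.30). Its relative Pglyrp4 (2.93 with ZAG and 2.98 in control) and the envelope-like gene Lelp1 (1.96 with ZAG and 1.98 in control) did not reach the gauge on either array.

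Among genes that build and process the same structures, more were lower than higher, where 47.9% of all genes were lower. Of 7 measured cross-linking and citrullination genes, 5 were lower, among them Padi6 below the gauge on both arrays, with a median of -0.23, and 2 of the 7 differed by less than the probe SD. The transglutaminase genes Tgm3 (-0.68) and Tgm1 (-0.49), whose enzymes cross-link the envelope, differed most, while the peptidylarginine deiminase genes Padi3 (0.43) and Padi4 (0.39), whose enzymes citrullinate proteins, were higher. Of 19 filaggrin processing and desquamation genes, 14 were lower, with a median of -0.23, and 8 of the 19 differed by less than the probe SD. Both medians are smaller than that SD, but it is a scale for single genes and not for medians. Klk6 (-1.02) and Klk14 (-1.01), kallikrein protease genes, were the ones at least 2-fold lower. The protease inhibitor gene Cst6 was 0.48 higher and the membrane protease gene Prss8 0.25.

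Of 20 other envelope and granule genes, 14 were lower, with a median of -0.16, and 8 of the 20 differed by less than the probe SD. They ranged from Lypd3 (-0.73) and the barrier lipoxygenase gene Alox12b (-0.72) to Slurp2 (0.45) and Psors1c2 (0.66), and 0 were at least 2-fold different. Of 31 measured transcription regulators of epidermal differentiation, 23 were lower, with a median of -0.17. The medians of both lists are smaller than the probe SD, but it is a scale for single genes and not for medians. Over all genes 47.9% were lower. Of the 31 regulators, 16 differed by less than that SD. Klf4 (-0.72), a factor required for barrier formation in mice, and the nuclear receptor gene Ppard (-0.69) differed most. Among those with a mean level above the gauge, Jun (0.22) and Satb1 (0.15) were highest, and 0 of the 31 were at least 2-fold different. Over all genes, 0.609% were at least 2-fold lower and 0.153% higher.

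**Figure D4:**
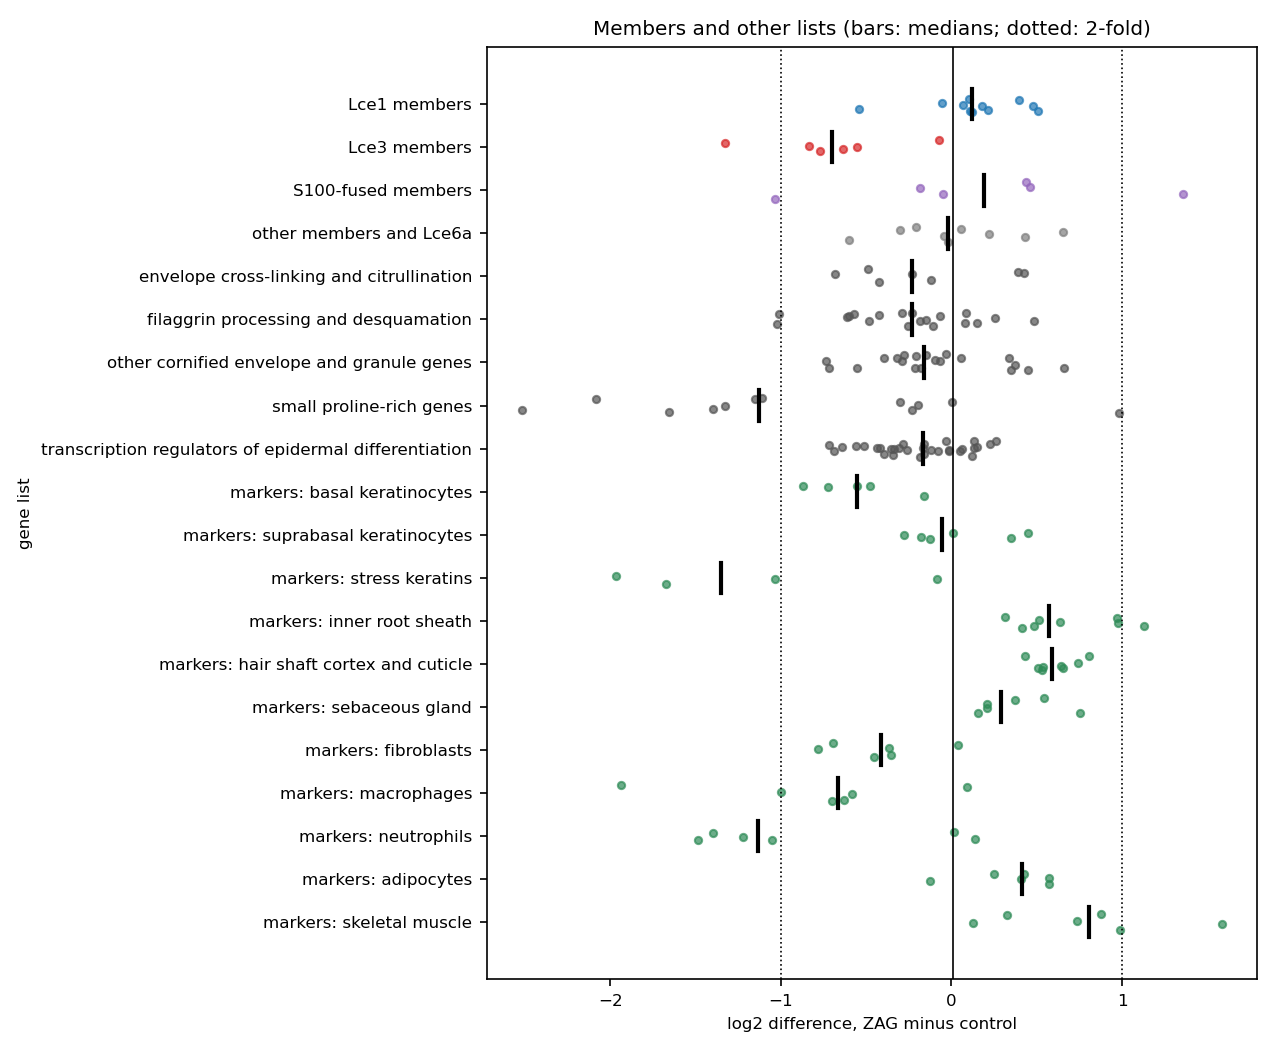
Log2 difference (ZAG minus control, horizontal axis) of each gene of the members and of 16 other lists, with 1 point per gene (vertical scatter within a list is only for legibility), black bars at list medians and the thin line at the median of all genes. Lce3, the small proline-rich genes and the stress keratins have medians of -0.70, -1.13 and -1.35, while Lce1 and the suprabasal markers lie near 0 (0.12 and -0.06).

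The arrays hold epidermis in both groups. The suprabasal keratinocyte markers define the epidermal cells that make envelope proteins, not the inner root sheath and medulla cells that make trichohyalin. These markers were higher in 3 of 6 and lower in 3, with a median of -0.06. Their summed signals were 10135 with ZAG and 10506 in control. Krt1 and Krt10 differed by -0.13 and 0.01, Krt77 by 0.45 and Dsc1 by -0.28, and Krt2 was below the gauge with ZAG. Basal keratinocyte markers were lower in 5 of 5 (median -0.55, summed signals 2123 with ZAG and 3362 in control), with Itgb4 at -0.87 and Krt14 at -0.73. Fibroblast markers were lower in 5 of 6 (median -0.41, 6823 with ZAG and 8420 in control), and macrophage markers in 5 of 6 (median -0.66, 477.8 with ZAG and 804.6 in control). Sebaceous gland markers were higher in 6 of 6 (median 0.29, 1731 with ZAG and 1338 in control), adipocyte markers in 5 of 6 (median 0.42, 2623 with ZAG and 1822 in control) and skeletal muscle markers in 6 of 6 (median 0.81, 1999.6 with ZAG and 1300.2 in control). Over all genes 47.9% were lower and 51.8% higher. How the makeup of the sampled skin enters the members' differences was not tested, and it cannot be told apart from treatment in 1 array a group.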

How the data were processed

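The deposited values are log2 signals per probe of Affymetrix arrays, 1 column per group. The log2 unit was inferred from their range, 0.866 to 13.2 with ZAG and 0.889 to 12.75 in control. The authors' background correction, summarisation and normalization are not stated in the sources used here. Column medians were 3.36 with ZAG and 3.33 in control. The number of arrays limits the precision, as does signal near background. Of 33793 probes, the platform annotation gave 1 symbol for 23521, several for 1814 and none for 8458. Probes with 1 symbol were used as deposited, and genes with several probes averaged. All 35 member symbols were found in the RefSeq gene table. No coordinates of array probes are given because their build is not named. Differences are ZAG minus control. The members and the other lists were chosen with earlier results of these data known. All measured members are named. From each other list up to 2 genes per direction above the gauge were named, or the genes that define a marker list. A gene may stand in 2 lists. Simulated data were used to check shifts of single genes, the scaling steps and the floor. Subfamily medians and differences between mice were not simulated. Alternatives were median centring, quantile normalization, loess (span 0.3), the brightest probe, probes of several symbols, level filters, gauges at the 90th and 99th percentile, a 1.5-fold threshold and list means. The tools were biopython 1.88, matplotlib 3.10.9, statsmodels 0.14.6, pandas 2.3.3 and numpy 2.4.6 under Python 3.11.15.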

Additional observations from a re-analysis of the deposited data

Results flagged for a closer look

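A pair of probes that list several Lce1 genes each were left out of the comparison. One of them, listing Lce1c and Lce1k, was higher on the ZAG array, at 9.62 with ZAG and 9.40 in control (0.21), a gap smaller than the SD between probes of a gene. The other, listing Lce1d and Lce1k, was at 4.50 with ZAG and 4.70 in control (-0.19). The probe of Lce1k alone was below the background gauge on both arrays.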

How the results depend on the processing

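No member changed sign under median centring, quantile normalization, loess, the brightest probe or probes of several symbols, and the largest move was 0.26, in Lce1k with probes of several symbols. Under centring, quantile normalization and loess, 2 members were at least 2-fold lower and 1 higher, and the Lce3 median was -0.73, -0.71 and -0.72. The median over all members, 0.02, is not told apart from 0, at -0.0079 after centring, 0.01 after quantile normalization, -0.0088 after loess and -0.05 as a mean. Restricting Lce3 to genes at or above the median level, above the gauge, or (added after seeing the data) above the gauge on both arrays left Lce3c and Lce3d, with a median of -1.08. The Lce3 minus Lce1 value was then -1.17, -1.18 and -1.18. A 1.5-fold threshold gave 4 lower and 2 higher members, and 563 lower and 275 higher genes among those at or above the median level, where 2-fold gave 128 and 30. Without a level filter, and without the gauge as floor, 160 genes were at least 2-fold lower and 46 higher. With the gauge as floor these counts were 135 and 34. No paired analysis was possible because each group has 1 array. Signal over background limits Lce3a, Lce3b, Lce3e, Lce3f and the 4 dim Lce1 genes.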
